A study of Mus musculus with 34 samples.

Results

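The transcripts of 10 cytokine genes were followed in single cells of mouse ear skin. These were *Il13*, *Il4*, *Il6*, *Osm*, *Lif*, *Tnf*, *Il1b*, *Csf1*, *Csf2* and *Areg*, taken by name as 10 of the 25852 genes in the deposited tables, and all 10 had transcripts in at least 1 cell. Mast cells (MCs) came from 3 WT and 3 *Tln1*ΔMC male mice aged 7 weeks, 4 libraries per mouse except 10 for *Tln1*ΔMC mouse 3. The labels name the strain C57BL/6J, and the study's methods give an albino form of it (C57BL/6J-Albino, *Tyr* c-2J/c-2J) for mice of this cross. All 6 mice carried 1 copy of *Mcpt5-cre*, which is active in connective tissue MCs, and the *R26* LSL:YFP reporter. The *Tln1*ΔMC mice were *Tln1* fl/fl, and the WT mice were *Tln1*+/+ littermates. MCs were sorted as CD45+ YFP+ cells without markers of T, B, NK and CD11c-expressing cells, after enzymatic digestion of the skin. Mural cells were sorted as CD45- GFP+ cells from *Myh11-GFP*/+ mice, in which the promoter of smooth muscle myosin heavy chain drives GFP, into 4 libraries. The number and sex of these mice are not given in the sources used here, and for their age the methods give only a range for all genotypes. The libraries therefore counted as 1 sample and no test was made on them. No mouse was treated.

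MCs are long-lived tissue cells of haematopoietic origin that store proteases, histamine and some TNF in granules and that can transcribe cytokine genes anew after activation. Mural cells, the vascular smooth muscle cells (VSMCs) and pericytes, wrap blood vessels and respond to several of these cytokines. IL-4 and IL-13 are type 2 cytokines with a shared receptor chain. IL-6, oncostatin M and LIF all signal through gp130, the product of *Il6st*. TNF and IL-1β are inflammatory cytokines, CSF1 and CSF2 are growth factors of the macrophage and granulocyte lineages, and amphiregulin, the product of *Areg*, is a ligand of the EGF receptor.

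*Il13*, *Il4*, *Csf2*, *Osm* and *Lif* lie on chromosome 11 (GRCm38, GENCODE M21 annotation, all protein-coding). *Il13* (chr11:53631324-53634702, minus strand) and *Il4* (chr11:53602982-53618669, minus strand) are 12654 bases apart, and *Csf2* (chr11:54247271-54249667, minus strand) lies 612568 bases from *Il13*. *Osm* (chr11:4236420-4241026, plus strand) and *Lif* (chr11:4257557-4272514, plus strand) are 16530 bases apart. The others are *Il6* (chr5:30013114-30019981, plus strand), *Areg* (chr5:91139599-91148432, plus strand), *Tnf* (chr17:35199381-35202007, minus strand), *Il1b* (chr2:129364570-129371139, minus strand) and *Csf1* (chr3:107741048-107760469, minus strand).

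RefSeq promoter sequences (GRCm38.p6) matched 9 of the 10 members, all but *Osm*, and the 250 bases before the start site are shown for *Il13* and for 4 members whose level was higher in MCs with an *Il13* transcript. Written 5′ to 3′ on the gene's strand, capitals mark GGAAA, the core bound by NFAT, the AP-1 motif TGANTCA and the NF-kB motif, which reads GGGA, any base and TTTCC, on either strand. The windows are chr11:53634703-53634952 for *Il13*, chr11:53618666-53618915 for the second annotated start of *Il4*, chr5:30012864-30013113 for *Il6*, chr17:35202008-35202257 for *Tnf* and chr3:107760470-107760719 for *Csf1*.
Il13: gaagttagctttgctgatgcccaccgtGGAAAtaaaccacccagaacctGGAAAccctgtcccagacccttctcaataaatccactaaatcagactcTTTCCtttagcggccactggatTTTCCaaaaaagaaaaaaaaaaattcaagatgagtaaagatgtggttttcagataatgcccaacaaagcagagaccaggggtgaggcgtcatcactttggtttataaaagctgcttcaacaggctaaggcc
Il4, second start: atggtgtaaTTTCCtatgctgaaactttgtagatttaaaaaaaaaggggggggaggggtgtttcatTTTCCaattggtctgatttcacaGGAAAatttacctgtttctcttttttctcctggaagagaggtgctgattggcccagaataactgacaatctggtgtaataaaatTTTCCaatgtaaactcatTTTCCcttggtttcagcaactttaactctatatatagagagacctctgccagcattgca
Il6: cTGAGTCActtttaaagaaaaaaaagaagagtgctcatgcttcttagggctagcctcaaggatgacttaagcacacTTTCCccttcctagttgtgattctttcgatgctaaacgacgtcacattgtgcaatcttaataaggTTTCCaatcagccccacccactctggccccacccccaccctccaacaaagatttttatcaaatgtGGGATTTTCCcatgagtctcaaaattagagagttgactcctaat
Tnf: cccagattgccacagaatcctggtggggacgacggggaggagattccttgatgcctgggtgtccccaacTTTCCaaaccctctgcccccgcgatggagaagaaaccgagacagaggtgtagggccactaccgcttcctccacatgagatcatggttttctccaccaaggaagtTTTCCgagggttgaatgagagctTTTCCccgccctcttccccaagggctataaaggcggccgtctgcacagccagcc
Csf1: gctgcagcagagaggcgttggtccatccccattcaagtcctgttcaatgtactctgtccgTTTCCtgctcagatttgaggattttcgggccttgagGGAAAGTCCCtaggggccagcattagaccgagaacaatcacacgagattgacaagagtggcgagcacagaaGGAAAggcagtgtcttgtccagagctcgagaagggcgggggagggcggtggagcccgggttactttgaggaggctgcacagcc
GGAAA occurred 4 times before *Il13*, 5 times before the second start of *Il4* and not before its first start, and 3 times each before *Il6*, *Tnf*, *Il1b* and *Csf1*, and it was found in 55.6% of the 32841 promoter windows of this length. The NF-kB motif, which holds a GGAAA on its other strand, occurred once before *Il6* and once before *Csf1* and in 0.356% of all windows. TGANTCA occurred once before *Il6* and once before *Lif*, against 6.75% of all windows, and AGATAA, a motif of GATA factors that is not capitalised, once before *Il13* and once before *Csf2*, against 9.99%. These matches describe letters in the window and were not compared with binding data.

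After cells with over 1000 transcripts were kept, 338, 294 and 272 cells of WT mice 1, 2 and 3, 285, 354 and 934 cells of *Tln1*ΔMC mice 1, 2 and 3 and 330 *Myh11-GFP* cells remained. Genes named Gm plus a digit took 14.2% to 58.0% of the transcripts of the mice, so levels are given per 10000 transcripts outside these genes. The median cell held 1888 to 4761 UMIs outside them in the MCs of each mouse and 3904.5 in *Myh11-GFP* cells. MC markers summed to 633 to 866 per 10000 in the MCs of each mouse and to 0.194 in *Myh11-GFP* cells, where *Mcpt4*, *Cma1*, *Tpsb2*, *Ms4a2* and *Fcer1a* were at 0. WT mouse 2 stood apart in the macrophage markers, at 42.2 per 10000 against 1.22 in the lowest mouse, most of all in its library 3 (93.7). The 6 fibroblast markers, all found in the MC libraries, summed to 20.1, 82.7 and 54.1 in WT mice 1, 2 and 3 and to 10.5, 1.97 and 0.976 in *Tln1*ΔMC mice 1, 2 and 3, higher in every WT mouse. Libraries 16 of WT mouse 1, 3 of WT mouse 2 and 8 of *Tln1*ΔMC mouse 3 stood apart in keratinocyte markers (19.2, 43.9 and 98.0). The tables all number their columns alike, since the columns are well barcodes, and no 2 mice agreed within sampling noise. The values rest on 3′ tags, which follow the number of molecules and not transcript length.

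**Figure D1:**
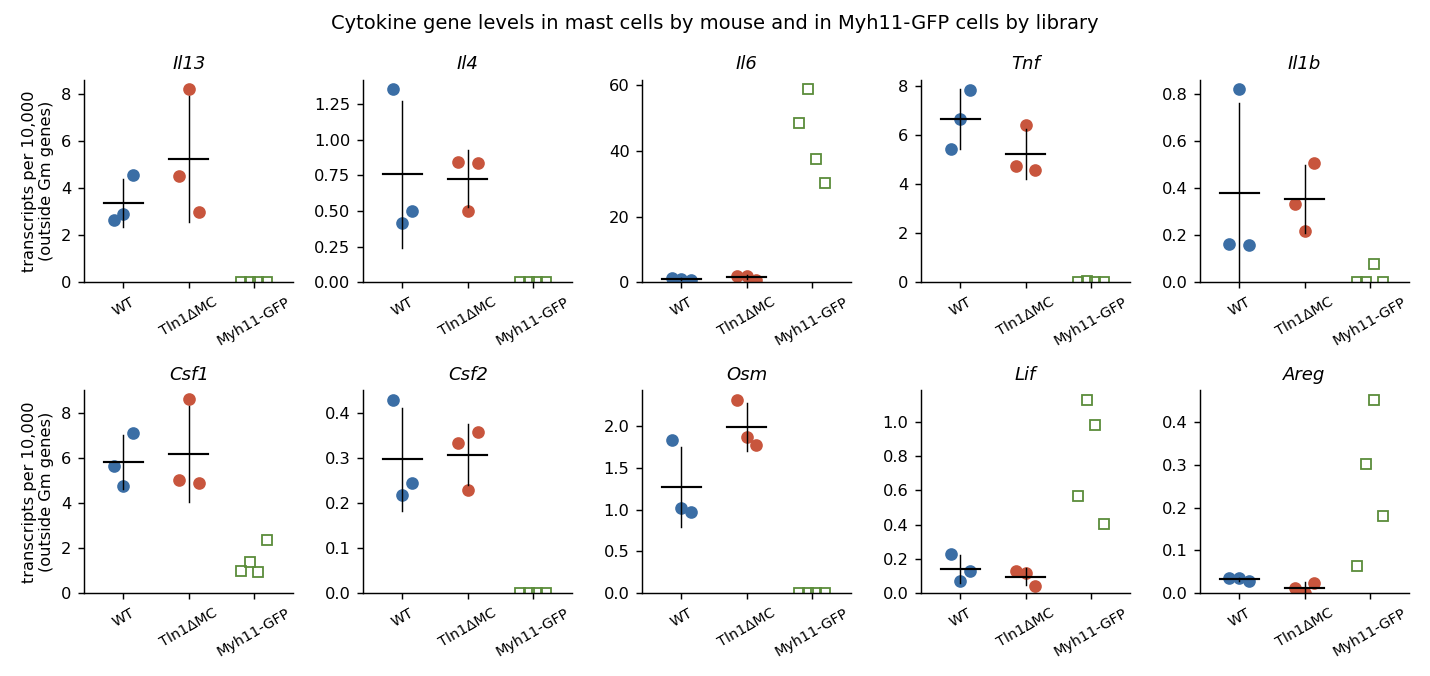
Level of each of the 10 cytokine genes in transcripts per 10000 outside Gm genes, each panel with its own scale from 0, as 1 filled point per mouse for WT and *Tln1*ΔMC MCs (line and bar, mean ± SD of 3 mice) and 1 open square per library for Myh11-GFP cells. *Il6*, *Lif* and *Areg* stood higher in every Myh11-GFP library than in the MCs of every mouse, while *Il13*, *Il4*, *Csf2* and *Osm* had no transcript there.

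Among the type 2 cytokines, *Il13*, which drives mucus and fibrosis in type 2 responses, had at least 1 transcript in 1016 of 2477 MCs (41.0%). Its level was 2.65, 2.91 and 4.57 per 10000 (WT mice 1, 2, 3) and 4.54, 8.21 and 2.996 (*Tln1*ΔMC mice 1, 2, 3). *Tln1*ΔMC mouse 2 stood highest, and the genotypes overlapped. The transcripts were unevenly spread, as 438 positive cells held a single UMI, 91 held 10 or more and the 1% of MCs with the most held 19.4% of all *Il13* UMIs. None of the 330 *Myh11-GFP* cells held an *Il13* transcript, a count of 0 that leaves room for a share of 0.909% and a level of 0.0210. This limit, and the intervals given below, cover counting error only.

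*Il4*, the cytokine that directs T helper cells to type 2 immunity, was found in 508 MCs (20.5%). It stood at 1.35, 0.418 and 0.501 per 10000 (WT mice 1, 2, 3) and 0.846, 0.501 and 0.836 (*Tln1*ΔMC mice 1, 2, 3). WT mouse 1 was the highest of all 6, and WT mouse 2 was the lowest. Of the positive cells 368 held a single UMI, and 1 cell held 10 or more. No *Myh11-GFP* cell had an *Il4* transcript.

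Of the gp130 cytokines, *Il6* was found in 407 MCs (16.4%), with 26 UMIs in the highest cell and 29.8% of its UMIs in the top 1% of cells. Its level was 1.21, 0.924 and 0.586 (WT mice 1, 2, 3) and 2.00, 1.95 and 0.795 (*Tln1*ΔMC mice 1, 2, 3). *Tln1*ΔMC mice 1 and 2 lay above all WT mice and *Tln1*ΔMC mouse 3 lay within the WT range. *Myh11-GFP* cells held 45.5 per 10000 (95% Poisson interval 44.3 to 46.5). *Osm*, a product of activated leukocytes, was found in 715 MCs (28.9%) and in no *Myh11-GFP* cell. It stood at 1.83, 1.02 and 0.973 in the WT mice and at 2.31, 1.87 and 1.77 in the *Tln1*ΔMC mice, with WT mouse 1 between *Tln1*ΔMC mice 2 and 3 and WT mice 2 and 3 lowest. *Lif* was found in 56 MCs (2.26%), of which 48 held 1 UMI, and in 47 of 330 *Myh11-GFP* cells (14.2%). Its level was 0.231, 0.0697 and 0.129 in the WT and 0.128, 0.119 and 0.0401 in the *Tln1*ΔMC mice, against 0.792 (0.657 to 0.957) in *Myh11-GFP* cells.

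*Tnf*, the main early inflammatory cytokine of MCs, was found in 1611 MCs (65.0%), and *Myh11-GFP* cells held 2 UMIs in 2 cells (0.606%). It stood at 5.43, 6.67 and 7.86 (WT mice 1, 2, 3) and 4.75, 6.42 and 4.58 (*Tln1*ΔMC mice 1, 2, 3). *Tln1*ΔMC mice 1 and 3 lay below every WT mouse, and *Tln1*ΔMC mouse 2 lay within the WT range. *Il1b*, the precursor of an inflammasome product, was found in 79 MCs (3.19%), and 25 cells held 86.0% of its UMIs. It stood at 0.162, 0.821 and 0.157 in the WT mice and at 0.333, 0.221 and 0.510 in the *Tln1*ΔMC mice, with WT mouse 2 highest.

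Of the growth factors, *Csf1*, the factor on which macrophages depend, was found in 1438 MCs (58.1%) and in 84 *Myh11-GFP* cells (25.5%). Its level was 5.62, 4.74 and 7.11 in WT mice 1, 2 and 3, 5.02, 8.61 and 4.86 in *Tln1*ΔMC mice 1, 2 and 3 and 1.29 (1.11 to 1.49) in *Myh11-GFP* cells. Every mouse's MCs lay above the *Myh11-GFP* sample. *Csf2*, which encodes GM-CSF, was found in 185 MCs (7.47%) and in no *Myh11-GFP* cell, at 0.428, 0.218 and 0.243 in the WT and 0.333, 0.229 and 0.357 in the *Tln1*ΔMC mice. *Areg* was found in 14 MCs (0.565%). This share is below the 0.686% of MCs with a transcript of *Myh11*, a smooth muscle gene that MCs should lack. Whether the *Areg* transcripts of MCs are background was not tested. The reverse share, of *Myh11-GFP* cells with the MC gene *Cpa3*, was 0.303%, and 9 *Myh11-GFP* cells (2.73%) held *Areg*.

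In summed transcripts, cells with *Il1b*, *Lif* or *Areg* held less *Cpa3* than the cells without each gene. Such sums weigh deep cells more, and the deepest cell of the MC libraries held 431991 transcripts. The median UMIs outside Gm genes were 3609 in *Il1b*-positive, 4390.5 in *Lif*-positive and 4182.5 in *Areg*-positive cells. The part of very deep cells in these *Cpa3* levels was not tested. *Cpa3*, an MC protease, stood at 44.1 per 10000 in *Il1b*-positive, 50.0 in *Lif*-positive and 25.4 in *Areg*-positive cells, against 127 to 129 in the cells without each gene. It stood at 127 in *Il13*-positive, 125 in *Tnf*-positive and 105 in *Il6*-positive cells. Cells with at least 1% of their transcripts from macrophage, fibroblast or keratinocyte markers numbered 63 of 2477, 26 of them from WT mouse 2. These 63 cells held 51.5% of the *Il1b* UMIs, 39.1% of the *Areg* UMIs, 3.66% of the *Lif* UMIs and 0.786% to 2.56% of the UMIs of each other member. Without them, *Il1b* stood at 0.170, 0.447 and 0.0809 in the WT and 0.338, 0.196 and 0.213 in the *Tln1*ΔMC mice, so WT mouse 2 was still the highest. *Areg* then stood at 0.0363, 0.0311 and 0.0324 in the WT and at 0.0130, 0 and 0.0105 in the *Tln1*ΔMC mice.

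Libraries of 1 mouse, which are parts of 1 sample and not replicates, also differed in these genes. In WT mouse 3, libraries 3 and 4 stood above libraries 1 and 2 for each of *Il13*, *Il4*, *Il6*, *Tnf*, *Csf1* and *Osm*. There *Il13* stood at 2.72, 2.97, 6.34 and 6.15 per 10000 in libraries 1 to 4, *Tnf* at 6.47, 5.06, 9.82 and 10.1, and *Osm* at 0.605, 0.494, 1.48 and 1.28. In *Tln1*ΔMC mouse 2, *Il13* and *Il6* had different orders, with *Il13* at 5.22, 7.12, 11.3 and 9.35 and *Il6* at 3.25, 1.45, 1.71 and 1.61 in libraries 9 to 12. Of the 10 libraries of *Tln1*ΔMC mouse 3, library 8, which stood apart in keratinocyte markers, was the lowest for these same 6 members. It held 1.31 for *Il13*, 0.351 for *Il4*, 0.362 for *Il6*, 2.59 for *Tnf*, 2.51 for *Csf1* and 0.756 for *Osm*. The part of the other cells in these levels, and of very deep cells in the summed transcripts, was not tested.

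The MCs of *Tln1*ΔMC mice were compared with those of WT mice to ask whether the 10 genes differ when *Tln1* is lost from MCs. Its product, talin-1, couples integrins to actin. *Tln1* itself stood at 4.51, 5.92 and 6.71 per 10000 (WT mice 1, 2, 3) and 5.57, 4.33 and 3.63 (*Tln1*ΔMC mice 1, 2, 3). The genotypes overlapped, with a log2 difference of -0.34 (SE 0.23, adjusted p = 0.914 in limma, n = 3 mice each). A 3′ tag need not lie in the deleted part, so this value does not check the labels. No member passed the test between genotypes in the fit over 9233 genes by limma with Benjamini-Hochberg adjustment, where 0 genes passed (0%), 481 had an unadjusted p under 0.05 (5.21%) and 0 passed by voom. *Osm* was the single member with an unadjusted p under 0.05, at 1.27 ± 0.480 in WT and 1.98 ± 0.287 in *Tln1*ΔMC mice (SD, n = 3 each), a log2 difference of 0.69. Its SE was 0.27, with p = 0.0298 before and 0.903 after adjustment in limma. *Il6* had the largest log2 difference, 0.74 (SE 0.39, adjusted p = 0.906 in limma), from 0.908 ± 0.315 to 1.58 ± 0.683. For *Il13* the means were 3.38 ± 1.04 and 5.25 ± 2.68 (log2 difference 0.55, SE 0.36, adjusted p = 0.914 in limma), and for *Tnf* 6.65 ± 1.21 and 5.25 ± 1.02 (-0.34, SE 0.22, adjusted p = 0.913). *Il4*, *Il1b*, *Csf1* and *Csf2* differed by 0.05 to 0.26 on the log2 scale and *Lif* by -0.53, with adjusted p from 0.940 to 0.990 in limma. The fibroblast markers separate the genotypes, and without cells rich in other markers they still did, at 1.66, 6.75 and 3.33 in the WT and 1.23, 1.07 and 1.05 in the *Tln1*ΔMC mice. There the log2 differences were 0.60 for *Osm*, 0.64 for *Il6*, 0.47 for *Il13* and -0.43 for *Tnf*, and the part of fibroblast transcripts in them was not tested.

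An exact two-sided permutation test over the mice, which cannot go below 0.1 with 3 against 3, gave p = 0.2 for *Osm* and *Tnf* and 0.3 for *Il13* and *Il6*. The ranges of the mice did not overlap for 1 of 10 members, *Areg*, at 0.0327 ± 0.00356 in WT and 0.0126 ± 0.0124 in *Tln1*ΔMC mice (exact permutation p = 0.1), while 11.3% of all genes tested did not overlap. *Areg* had too few transcripts to enter the limma fit, and its 0 of 354 cells in *Tln1*ΔMC mouse 2 leaves room for a share of 0.847%. The MC libraries were placed in sets by the transcripts in barcodes outside the set in use. *Tln1*ΔMC mouse 1 was placed with WT mouse 1, *Tln1*ΔMC mouse 2 with WT mice 2 and 3, and *Tln1*ΔMC mouse 3 alone. These transcripts of *Tln1*ΔMC mouse 2 correlated with cells of WT mice 2 and 3 at medians of 0.513 and 0.474. The first set was less clear. Those of *Tln1*ΔMC mouse 1 correlated at 0.277 with cells of WT mouse 1 and at 0.171 with those of *Tln1*ΔMC mouse 2, with overlapping ranges. Differences in the second set are against the mean of WT mice 2 and 3. Within both sets *Il13*, *Il6* and *Osm* stood higher in the *Tln1*ΔMC mouse, by 1.89 and 4.47, by 0.787 and 1.1987, and by 0.482 and 0.872 per 10000. *Tnf* stood lower in both, by a difference of -0.689 and -0.840. A limma fit with these sets as a block, an alternative chosen after seeing the data in which *Tln1*ΔMC mouse 3 carries no weight, gave log2 differences of 1.00 for *Il13* (adjusted p = 0.302), 1.10 for *Il6* (adjusted p = 0.307), 0.66 for *Osm* (adjusted p = 0.426) and -0.18 for *Tnf* (adjusted p = 0.809). The values of *Il13* and *Il6* are larger than in the fit without the block, and no member passed.

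The share of cells with a transcript depends on depth, so each cell was also thinned to 500 UMIs, which left out 71 of 2477 cells. *Osm* was then found in 6.18%, 5.41% and 4.36% of cells of the WT mice and in 7.83%, 6.79% and 7.82% of cells of the *Tln1*ΔMC mice, so that every *Tln1*ΔMC mouse was above every WT mouse (exact permutation p = 0.1). After thinning to 1000 UMIs the ranges overlapped for *Osm* and for all other members. Before thinning, the shares were 21.3%, 25.9% and 15.1% against 23.5%, 25.4% and 39.5% and overlapped. *Areg* was the other member without overlap after thinning, at means of 0.205% in WT and 0.0362% in *Tln1*ΔMC mice (exact permutation p = 0.1). These are 2 of 10 members, where 9.47% of all genes tested did not overlap in this share (10.3% after thinning to 1000 UMIs). The mean thinned share of *Il13* was 13.3% and 14.7%, of *Il6* 3.46% and 5.30% and of *Tnf* 26.02% and 19.7% in WT and *Tln1*ΔMC mice, all with overlap. Unthinned, *Il13* was found in 25.4%, 41.5% and 38.6% of cells of the WT mice and in 31.6%, 39.3% and 50.7% of cells of the *Tln1*ΔMC mice.

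Transcripts of several members were often found in the same MC. At least 1 member was found in 87.1% of MCs (73.1% to 95.6% by mouse) and 3 or more in 46.0% (29.8% to 63.6%), with at most 8 in 1 cell. In *Myh11-GFP* cells 77.9% held at least 1 and 7.58% held 3 or more. *Il13* was found in 256 of 407 *Il6*-positive MCs (62.9%) and in 36.7% of *Il6*-negative MCs, and in 282 of 508 *Il4*-positive MCs (55.5%) and 37.3% of the rest. In the other direction, *Il6* was found in 25.2% of *Il13*-positive and 10.3% of *Il13*-negative MCs, and *Il4* in 27.8% and 15.5%. Positive cells were deeper, with a median of 4253 UMIs in *Il13*-positive and 2507 in *Il13*-negative MCs, so levels rather than shares were compared within each mouse.

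**Figure D2:**
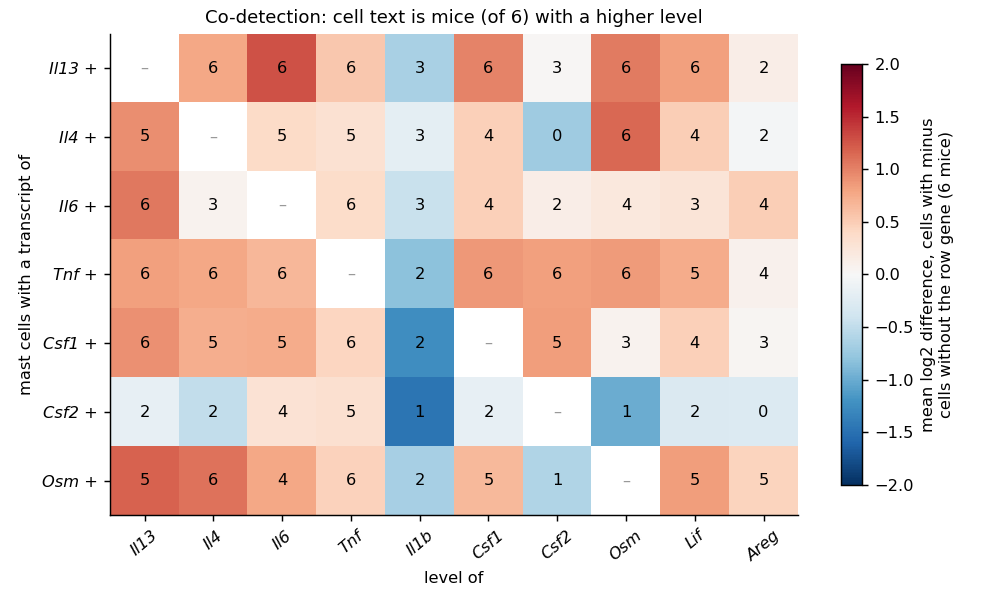
Difference in the level of each member (columns) between MCs with and without a transcript of another member (rows), as the mean over 6 mice of the log2 difference in transcripts per 10000 plus 0.1, with the number of mice that were higher written in each field. Of the 63 pairs, 19 were higher in all 6 mice.

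Of 63 ordered pairs of members that could be compared in 6 mice, 19 were higher in all 6 mice and 1, *Csf2* in *Il4*-positive MCs, was lower in all 6 (mean log2 difference -0.70). Over the 64624 pairs of a member and any gene tested, 3.04% were higher and 5.51% lower in all 6. Against cells without the member within 10% of the same number of UMIs, 15 of the 63 pairs were higher in all 6. After thinning to 500 UMIs they were 2 of 36, *Csf1* in *Il13*-positive and *Il13* in *Csf1*-positive MCs, where 0.747% of 36928 pairs of a member and any gene were. With 6 mice the smallest exact sign-flip permutation p is 0.031 for any 1 pair. No pair passed after Benjamini-Hochberg adjustment of these p-values over the 63 (smallest adjusted p = 0.0984). *Tnf*-positive MCs held more of 6 other members in all 6 mice, namely *Il13* (mean log2 difference 0.82), *Il4* (0.78), *Il6* (0.66), *Csf1* (0.87), *Csf2* (0.81) and *Osm* (0.84). *Osm* stood higher in *Il4*-positive MCs (1.14) and *Il4* in *Osm*-positive MCs (1.09), again in all 6 mice. *Csf1*-positive MCs held more *Il13* (0.91) and *Tnf* (0.43), and *Osm*-positive MCs more *Tnf* (0.46), likewise in all 6. *Il6*-positive MCs held more *Il13* (1.05) and *Tnf* (0.36) in all 6 mice, and more *Csf1* (0.47) and *Osm* (0.21) in 4 of 6.

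MCs with an *Il13* transcript were then set against MCs of the same mouse without one across all genes, with the mouse as a block. There were 86, 122 and 105 *Il13*-positive MCs (WT mice 1, 2, 3) and 90, 139 and 474 (*Tln1*ΔMC mice 1, 2, 3). The level of *Il6* was 2.15, 1.26 and 0.692 in *Il13*-positive MCs of the WT mice and 3.51, 3.07 and 1.11 in those of the *Tln1*ΔMC mice, against 0.699, 0.570 and 0.464 and 1.05, 0.782 and 0.437 in *Il13*-negative MCs. Every mouse was higher in the positive cells, by a log2 difference of 1.39 (SE 0.16, adjusted p = 0.000522 in limma over 8675 genes). *Osm* stood at 3.03, 1.06, 1.22, 3.77, 2.92 and 2.30 in the positive and at 1.17, 0.980, 0.680, 1.38, 0.764 and 1.17 in the negative cells of WT mice 1 to 3 and *Tln1*ΔMC mice 1 to 3. It was also higher in every mouse, by 1.11 (SE 0.18, adjusted p = 0.00289 in limma), with the smallest difference in WT mouse 2.

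*Csf1*, in the same order of mice, stood at 8.61, 5.02, 9.25, 8.07, 13.1 and 5.82 in *Il13*-positive and at 3.98, 4.44, 4.64, 3.08, 3.95 and 3.77 in *Il13*-negative MCs. The positive cells lay above the negative cells of all mice, with a log2 difference of 1.00 (SE 0.15, adjusted p = 0.00170 in limma). *Il4*, the neighbour of *Il13*, stood at 1.69, 0.495, 0.586, 1.55, 0.714 and 0.947 against 1.17, 0.339, 0.402, 0.398, 0.278 and 0.711 (0.88, SE 0.20, adjusted p = 0.0270 in limma). *Tnf* stood at 6.77, 7.07, 8.93, 5.98, 8.79 and 5.16 against 4.70, 6.26, 6.62, 3.96, 3.94 and 3.92 (0.55, SE 0.11, adjusted p = 0.0135 in limma). Both genes were higher in the positive cells of all 6 mice, while the ranges over the mice overlapped.

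**Figure D3:**
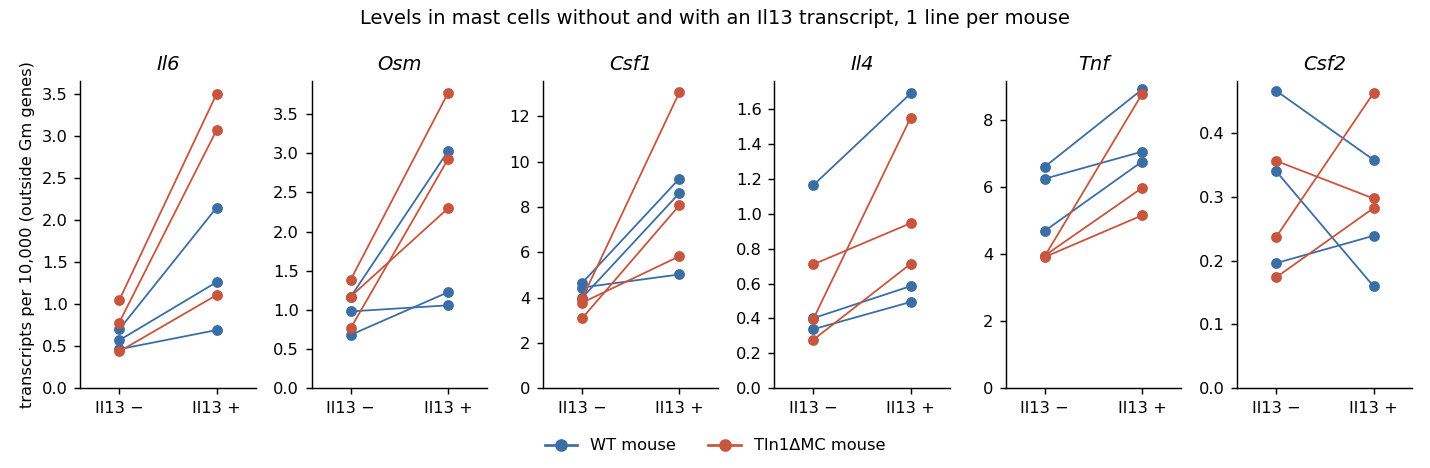
Levels of *Il6*, *Osm*, *Csf1*, *Il4*, *Tnf* and *Csf2* in *Il13*-negative and *Il13*-positive MCs, in transcripts per 10000 outside Gm genes, with a line joining both values of each mouse (3 WT and 3 *Tln1*ΔMC). The lines of the first 5 genes climb in all 6 mice, and those of *Csf2* climb in 3.

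The other growth factors and cytokines behaved differently. *Csf2*, which lies on the same chromosome as *Il13*, was higher in *Il13*-positive MCs in 3 of 6 mice (log2 difference 0.03, adjusted p = 0.969 in limma), and *Il1b* was also higher in 3 of 6 (-1.15, adjusted p = 0.477). *Lif* was higher in all 6 mice (1.54, SE 0.47) without passing the test (adjusted p = 0.133 in limma). In all, 5 of 8 members tested were called higher and 0 lower, where 0.749% of the 8675 genes were called higher and 1.34% lower, and 6 of 8 were higher in every mouse, where 2.99% of genes were. The members were chosen with earlier results of these data known, so these shares are a description and not a test. Without the mouse as a block, 2 genes were called in all, *Ccl7* and *Gpr183*, and no member was.

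Depth differed between these cells, so *Il13*-positive MCs were also paired with *Il13*-negative MCs of the same mouse whose UMIs differed by at most 10%, an alternative chosen after seeing the data. This left 910 of 1016 positive cells, and the median UMIs of positive and negative cells were closest in WT mouse 1 (3156 and 3158.5) and farther apart in *Tln1*ΔMC mice 2 (3514.5 and 3247.5) and 3 (5006 and 4663). Of 7453 genes, 50 were then called higher (0.671%) and 1, *Gm37333*, lower. *Il6* (log2 difference 1.31, adjusted p = 0.000115), *Csf1* (1.01, adjusted p = 0.000365), *Osm* (1.18, adjusted p = 0.000262) and *Tnf* (0.57, adjusted p = 0.00847) passed the limma test again, and *Il4* (0.76, adjusted p = 0.166) did not. After each cell was thinned to 2000 UMIs, which left 582 *Il13*-positive cells, *Il6*, *Csf1* and *Osm* passed and *Il4* and *Tnf* did not. After thinning to 500 UMIs 0 of 2590 genes passed in limma (186 at an unadjusted p under 0.05), and the log2 differences were -0.39 for *Il6*, -0.17 for *Tnf*, 0.16 for *Il4*, 0.83 for *Osm* and 0.90 for *Csf1*, so that *Il6* and *Tnf* turned. The positive cells were then 28 to 122 per mouse, and the median over all genes moved from -0.04 to -0.35. Over all 18 or 19 alternatives the limma adjusted p ran from 5.97e-06 to 0.854 for *Il6*, from 0.000119 to 0.236 for *Csf1*, from 0.000107 to 0.728 for *Osm*, from 0.00710 to 0.994 for *Il4* and from 0.00203 to 0.994 for *Tnf*. In the 3 WT mice alone no member passed, and the log2 differences were 1.10 for *Il6*, 0.77 for *Osm* and 0.76 for *Csf1*. *Il4* was not called without WT mouse 1, *Tln1*ΔMC mouse 1 or *Tln1*ΔMC mouse 2 (0.95, 0.67 and 0.79), nor *Tnf* without *Tln1*ΔMC mouse 1 or 2 (0.54 and 0.42).

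Outside the 10 members, the genes with the largest positive difference were *Egr2* (log2 difference 1.61, adjusted p = 0.00621 in limma), an early response transcription factor, and the chemokine genes *Ccl7* (1.23) and *Ccl2* (1.21). They were followed by *Srxn1* (1.16), *Olr1* (1.13), *Tmigd3* (1.11), the nuclear receptor gene *Nr4a2* (1.10) and *Gpr183* (1.08), the receptor for oxysterols. *Ccl7* stood at 36.8, 21.1, 29.3, 32.1, 43.5 and 30.4 per 10000 in *Il13*-positive and at 18.4, 12.7, 12.99, 11.96, 11.3 and 14.3 in *Il13*-negative MCs of WT mice 1 to 3 and *Tln1*ΔMC mice 1 to 3, without overlap. Of these, *Tmigd3* did not pass against the cells within 10% of UMIs (1.14, adjusted p = 0.0645 in limma). The genes with the largest negative difference were *Gm26917* (-1.56), *Slc36a1os* (-1.25), *Gm11027* (-1.15), *Gm38194* (-1.11) and *Gm10388* (-1.04), and none of these 5 passed against the cells within 10% of UMIs.

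Among 20 tested genes that control cytokine transcripts, 3 were higher and 0 lower in *Il13*-positive MCs, and the list's median log2 difference was 0.25 against -0.04 over all genes. They were *Egr1* (0.77, adjusted p = 0.000958 in limma), *Egr2* and *Nfkbiz* (0.78, adjusted p = 0.00144), which encodes a nuclear partner of NF-kB. Of 14 tested genes known to respond to tissue dissociation, 3 were higher and 0 lower, *Nr4a1* (0.99, adjusted p = 0.000496 in limma), *Junb* (0.66, adjusted p = 0.00124) and again *Egr1*, with a list median of 0.15. Their summed level was 224, 166, 219, 235, 215 and 227 per 10000 in *Il13*-positive and 188, 160, 191, 168, 166 and 200 in *Il13*-negative MCs of WT mice 1 to 3 and *Tln1*ΔMC mice 1 to 3, higher in every mouse. The part of these genes in the co-detection of the members was not tested.

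The receptors of the members gave 0 of 12 tested genes higher or lower in *Il13*-positive MCs, as did 6 other cytokine genes and 7 genes that process the proteins. The receptor genes with the most transcripts in MCs were *Csf2rb*, the chain shared by the GM-CSF and IL-3 receptors, at 8.20 to 18.2 per 10000 over the mice, *Il2rg* at 4.93 to 6.82 and *Il6ra* at 1.25 to 2.20. Between genotypes no gene of these lists passed either, with 0 of 12, 7, 20, 7 and 14 tested genes of the receptor, other cytokine, control, processing and dissociation lists, whose median log2 differences were -0.25, -0.23, 0.02, 0.22 and 0.09 against -0.02 over all genes. There the control gene with the highest level was *Gata2*, a transcription factor of the MC lineage, at 16.0 to 32.2 per 10000 over the mice, followed by *Nfkbia* (13.6 to 20.1) and *Egr1* (11.0 to 18.9), and the dissociation genes were *Jund* (25.2 to 45.3), *Jun* (24.2 to 40.9) and *Fosb* (17.1 to 22.8). In the processing list the highest levels over the mice were 6.59 to 9.502 for *Furin*, a protease that cuts proproteins, 0.435 to 0.859 for *Gsdmd*, which forms the pore that releases IL-1β, and 0.269 to 0.439 for the sheddase gene *Adam10*. Among the other cytokine genes they were 0.751 to 1.77 for *Tgfb1*, 0.296 to 0.936 for *Il11* and 0.136 to 0.223 for *Il16*.

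Mural cells differed from MCs in which members they held. In *Myh11-GFP* cells *Il6* stood at 48.5, 58.8, 37.7 and 30.4 per 10000 in libraries 13, 14, 15 and 16, each above the 2.00 of the highest MC mouse, and 76, 61, 63 and 44 cells of these libraries held it. Mural and mast cells also differ in genotype, sort gate and library, so that cell type cannot be told apart from these. The spread between cells was wide, as 86 of 330 cells held no *Il6* UMI, 110 held 1 to 9, 89 held 10 to 49 and 45 held 50 or more, up to 228 in 1 cell.

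**Figure D4:**
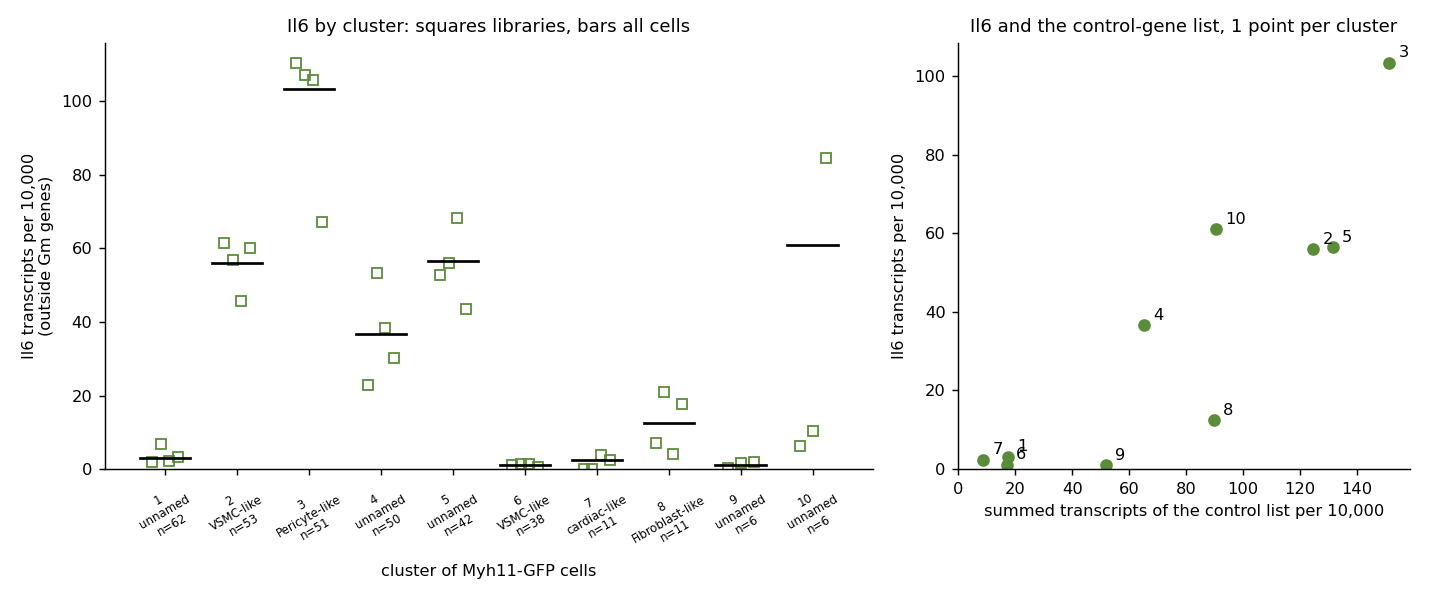
*Il6* level in each of the 10 clusters of Myh11-GFP cells, in transcripts per 10000 outside Gm genes, with 1 square per library and a line for all cells of the cluster (left), and the same level against the summed level of the control list, 1 numbered point per cluster (right). Pericyte-like cluster 3 stood highest at 103, VSMC-like clusters 2 and 6 stood at 56.0 and 1.13, and unnamed cluster 1, which held the most pericyte marker transcripts, stood at 3.15.

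The *Myh11-GFP* cells were clustered without the 10 members, and clusters were named by fixed markers. Pericyte-like cluster 3 (51 cells, led by *Ccl11*, *Ccl2* and *Cxcl2*) was named by 4 of the 9 pericyte markers, *Kcnj8*, *Abcc9*, *Steap4* and *Vtn*. *Rgs5*, *Pdgfrb*, *Notch3*, *Cspg4* and *Higd1b* were not among the markers that named it. All 51 cells held *Il6*, and its level was 110, 107, 106 and 67.3 in the 4 libraries. This cluster held 50.0% of all *Il6* UMIs. VSMC-like cluster 2 (53 cells, with *Crispld2*, *Rnd1* and *Nr4a2* among its leading genes) stood at 61.5, 56.8, 45.7 and 60.2, with *Il6* in 51 cells. VSMC-like cluster 6 (38 cells, led by *Synm*, *Cspg4* and *Mustn1*) stood at 1.01, 1.34, 1.29 and 0.569, with *Il6* in 13 cells. Of the 8 VSMC markers, *Myh11*, *Acta2*, *Lmod1* and *Mustn1* named both clusters, and *Tagln* also named cluster 6. In every library cluster 2 stood above cluster 6. Unnamed clusters 1 (62 cells, with *Kcnj8* and *Abcc9*), 4 (50 cells, with *C1qb* and *H2-Aa*) and 5 (42 cells, led by *Rasd1* and *Nr4a2*) stood at 3.15, 36.6 and 56.4, and the 11 fibroblast-like cells at 12.4. In cluster 4 macrophage markers summed to 13.6 per 10000, against 136 for pericyte and 116 for VSMC markers. Its median of 1344 UMIs outside Gm genes was the lowest of the clusters. Clusters 7 (cardiac and striated muscle-like), 9 (unnamed, with *Krt5* and *Krt14*) and 10 (unnamed, with *Pecam1* and *Cdh5*) held 11, 6 and 6 cells. They stood at 2.40, 0.99 and 61.0. In cluster 10 a single cell held 108 of the 193 *Il6* UMIs, and the level was 6.38, 10.4 and 84.7 in libraries 13, 14 and 15. Marker sums did not follow *Il6*, as pericyte markers summed to 186 per 10000 in cluster 1, 165 in cluster 3, 156 in cluster 2 and 161 in cluster 6, and VSMC markers to 156 in cluster 2 and 194 in cluster 6.

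Among the clusters of 38 to 62 cells, those with a high *Il6* level also held more of the control and dissociation genes, while among the smaller ones this order did not hold throughout. The control list summed to 151, 125 and 131 per 10000 in clusters 3, 2 and 5 and to 17.02 and 17.6 in clusters 6 and 1, and the dissociation list to 159.5, 153 and 196 against 28.2 and 21.4. Cluster 4 held 65.1 and 68.7 of these lists. Fibroblast-like cluster 8 (*Il6* at 12.4) held 89.7 and 123, and cluster 9 (*Il6* at 0.99) 51.9 and 125. Cluster 10 (*Il6* at 61.0, with 108 of its 193 UMIs in a single cell) held 90.3 and 95.2. Over single cells, Spearman's rho between *Il6* and the dissociation sum was 0.66, 0.55, 0.68 and 0.46 in libraries 13, 14, 15 and 16 (93, 78, 86 and 73 cells), and that between *Il6* and the control sum was 0.77, 0.66, 0.78 and 0.56. For *Il6* and depth it was 0.32, 0.28, 0.07 and 0.42. These are descriptions over cells of 1 sample, which share depth and library, and the part of the dissociation genes in the *Il6* level was not tested.

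*Lif* followed a similar order, at 1.64 in cluster 2 (19 cells with a transcript), 1.55 in cluster 3 (18 cells), 0.686 in cluster 5 and 0 in cluster 6, and its level was 0.564, 1.13, 0.983 and 0.406 in the 4 libraries. *Il6* was found in 44 of 47 *Lif*-positive cells (93.6%) and in 70.7% of *Lif*-negative cells, at 74.2 and 37.3 per 10000. The positive cells were deeper, with medians of 6287 and 3474 UMIs. *Csf1* stood at 0.982, 1.38, 0.956 and 2.35 in the 4 libraries. It was highest in the 11 fibroblast-like cells (4.66, in 6 of them) and in pericyte-like cluster 3 (2.18, in 31 of 51), against 0.451 and 0.397 in VSMC-like clusters 2 and 6. Of the *Myh11-GFP* cells, 78 of 330 held at least 1% fibroblast marker transcripts, and these markers summed to 187 per 10000 over the sample, above pericyte (139) and VSMC markers (90.7). *Areg* had 35 UMIs in 9 cells, 24 of them in 6 cells of cluster 2.

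The receptors of the gp130 cytokines were found on the mural side. *Il6st* stood at 5.80 per 10000 in *Myh11-GFP* cells (224 of 330 cells) against 0.187 to 0.384 in the MCs of the 6 mice. *Osmr*, which binds oncostatin M, stood at 3.55 (175 cells) against 0.0349 to 0.103, and *Lifr* at 0.764 against 0.0286 to 0.174. *Il6ra*, the chain specific to IL-6, went the other way, at 0.708 in *Myh11-GFP* cells and 1.25 to 2.20 in MCs. *Tnfrsf1a* (2.74), *Il1r1* (2.63) and *Il13ra1* (1.08) were also above the MCs of every mouse, while *Csf2rb* (0.0764) and *Il2rg* (0.0417) were below them. *Il4ra*, the chain shared by IL-4 and IL-13, was also below the MCs of every mouse. It stood at 0.222 in *Myh11-GFP* cells (24 of 330 cells) against 0.756 in the lowest MC mouse. *Osm*, *Il13* and *Tnf*, found in MCs, each had transcripts of a receptor chain in *Myh11-GFP* cells, and *Kitl*, which encodes the ligand of the MC receptor KIT, stood at 2.54 in *Myh11-GFP* cells against 0 to 0.0697 in MCs. These are transcript levels in separately sorted cells of different mice, and no signalling was measured.

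**Figure D5:**
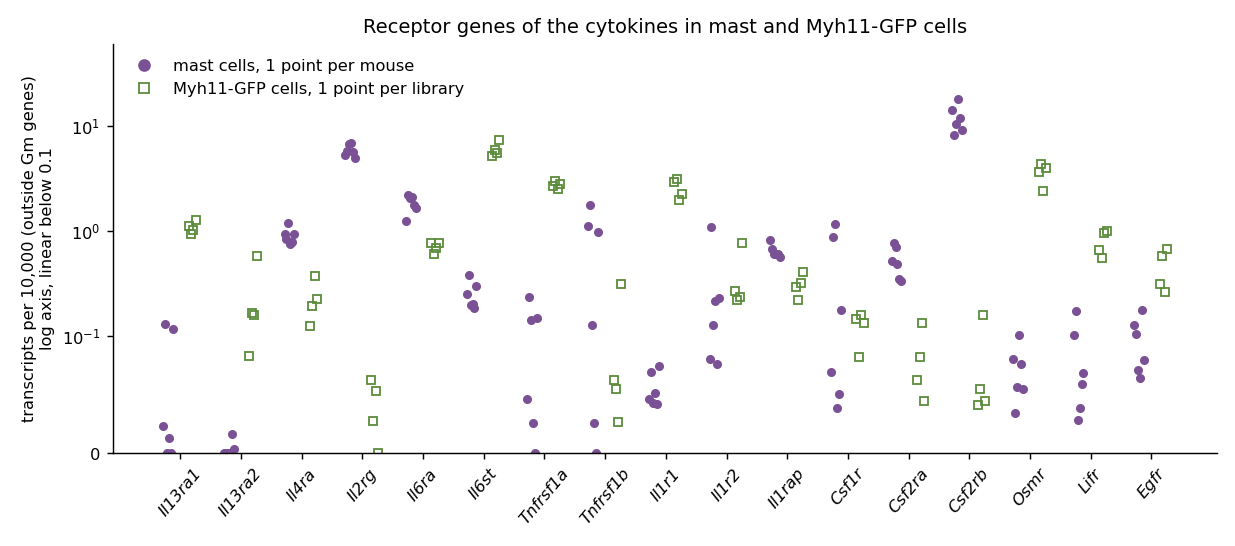
Levels of receptor genes of the 10 cytokines in MCs (1 filled point per mouse, both genotypes) and in Myh11-GFP cells (1 open square per library), in transcripts per 10000 outside Gm genes on an axis that is logarithmic above 0.1 and linear below it. *Il6st* and *Osmr* stood above the MCs of all 6 mice in each Myh11-GFP library, and *Csf2rb* and *Il2rg* stood below them.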

How the data were processed

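Single cells were sequenced by mCEL-Seq2, which tags each RNA molecule at its 3′ end with a cell barcode and a UMI. Per the labels, the authors demultiplexed reads with bcl2fastq 2.17.1.14, aligned them with BWA 0.6.2-r126 to the mm10 build and counted UMIs per gene. The deposited values are other than whole UMIs: the authors corrected them for chance repeats of a UMI, and all 88546176 values returned to whole UMIs (tolerance 1e-06) by the inverse formula with 4096 possible UMIs. The number after the genotype in each label was taken as the mouse. Cells with over 1000 transcripts and at most 2% from *Kcnq1ot1* were kept, and the latter limit removed none. As the study states, dead cells and doublets were excluded in the sort, and no doublet caller was run.

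The 10 members and the gene lists were chosen with earlier results of these data known. Their shares beside those of all genes are therefore descriptions and not tests. Transcripts were summed per mouse. Where a gene reached 10 transcripts in 3 mice or more, it entered a limma fit with trend (limma 3.58.1 under R 4.3.3) of log2 transcripts per 1000000 outside Gm genes, pseudocount 1, and p-values were adjusted over all genes by Benjamini-Hochberg (threshold 0.05). Differences are on that scale, which understates those of low genes. *Il13*-positive and *Il13*-negative sums (at least 10 positive cells per mouse) were fitted with the mouse as a block. For single values the mice were permuted exactly in Python 3.11.15, and pairs of members by exact sign flips on log2 of the level plus 0.1. Intervals are exact Poisson or binomial at 95%, and a count of 0 was read as up to 3. *Myh11-GFP* cells were clustered by scanpy 1.11.5 and leidenalg 0.10.2 at resolution 1 (2000 variable genes, 20 components, 15 neighbours). A cluster was named where at least 3 markers of 1 type led it, more than of any other type. It stayed unnamed where another list had more of its top genes or held over 3 times the transcripts. Shallow clusters without a marker of their type among the top genes also stayed unnamed. Named genes outside the members were the 10 largest positive and 5 largest negative differences past the threshold with 1 sign in every mouse and, from the lists, those that passed. On simulated genotype data for 8762 genes, the fit found 70 of 99 genes changed 2-fold and 100 of 100 changed 4-fold, and 6 of its 176 calls were unchanged genes. These data had 1 fixed dispersion for all genes and mice, and no library sets or other cells. The real mice differed by a chi-square per degree of freedom of 7.02 to 113.6 over pairs of mice. The simulated shares therefore do not give the power of the fit on the real mice.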

Additional observations from a re-analysis of the deposited data

Results flagged for a closer look

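Over the 4 *Myh11-GFP* libraries, the level of *Tnf* was 0.0551 in library 14 and 0 in the others, and that of *Il1b* was 0.0796 in library 15 and 0 in the others. Each was singled out as far from the other values, but with the other 3 libraries at 0 any UMI in the fourth would be, so this shows no more than 2 and 3 UMIs in 1 library each.

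The level of *Lif* between *Il6*-positive and *Il6*-negative MCs had opposite signs in the genotypes, with log2 differences of -0.53, -0.26 and -0.65 in WT mice 1, 2 and 3 and of 1.99, 0.93 and 0.10 in *Tln1*ΔMC mice 1, 2 and 3. The *Tln1*ΔMC mean exceeded the WT mean by 1.48 (exact permutation p = 0.1, the smallest possible). It was 1 of 63 pairs compared in this way, and *Lif* was found in 56 MCs in all.

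Barcodes outside the set in use held transcripts of the members. In the 30 MC libraries, 2871 such barcodes held 79 UMIs of *Il13*, 7 of *Il4*, 15 of *Il6*, 122 of *Tnf*, 11 of *Il1b*, 148 of *Csf1*, 5 of *Csf2* and 23 of *Osm*, from 0.903% to 2.61% of all UMIs of each gene. They held 2.97% of all UMIs outside Gm genes. In the 4 *Myh11-GFP* libraries, 376 such barcodes held 46 UMIs of *Il6*, 5 of *Il1b* and 6 of *Csf1*. These are 0.696% of the *Il6*, 50.0% of the *Il1b* and 3.14% of the *Csf1* UMIs, against 2.90% of all UMIs outside Gm genes.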

How the results depend on the processing

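Of 100 values of the 6 main counts under alternatives, 67 kept within 1.5 times the main count and 33 did not, and of 843 values of 58 single genes 712 kept their direction and side of the threshold, 92 lost the call, 2 moved and 37 changed direction. Unless stated otherwise the cause was not tested. Genes called between genotypes were 0, but 44 with Gm genes in the total (3 higher and 41 lower, which moved the median of all genes to 0.19), 3 lower (*Cbr2*, *Cd9* and *Timp3*) with the background set as a block and 0 to 8 without 1 mouse (8 lower without *Tln1*ΔMC mouse 1, among them *Dcn* and *Col1a2*). Members whose levels did not overlap between genotypes were 1, but 2 each with TMM, Gm genes in the total, the mean over cells and without the libraries that stand apart, 0 with barcode set 2 alone and 1 to 4 without 1 mouse. For thinned shares they were 2, but 0 after thinning to 1000 UMIs, 1 without thinning, 1 for at least 2 UMIs and 2 to 4 without 1 mouse. For these alternatives the share over all genes was not computed, except 10.3% after thinning to 1000 UMIs. Without 1 mouse fewer values need to lie apart, so those counts cannot be set beside the main ones. Pairs of members higher in all mice were 19, but 2 of 36 after thinning to 500 UMIs, 29 in *Tln1*ΔMC mice alone and 19 to 25 without 1 mouse. Fewer mice agree more easily, so the counts in *Tln1*ΔMC mice alone and without 1 mouse cannot be set beside the 19. Their shares over all genes were not computed.

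Genes called by the presence of *Il13* were 181, but 0 of 2590 after thinning to 500 UMIs (186 at an unadjusted p under 0.05), where 333 *Il13*-positive cells were left, 43 after thinning to 2000 UMIs, 28 against negative cells matched one to one on UMIs without a limit (which left *Tln1*ΔMC mouse 3 at medians of 5267 and 4318.5), 51 with pairs within 10% of UMIs, 324 without cells rich in other markers, 26 in WT and 79 in *Tln1*ΔMC mice alone, and 68 to 250 without 1 mouse (68 without *Tln1*ΔMC mouse 2). *Myh11-GFP* cells held 6 members, and 5 to 6 without 1 library. The replicate numbers did not pair the mice (correlation of same-numbered mice 0.185, -0.259 and -0.288), and with the replicate block 0 genes were called between genotypes. For the members this alternative counted differences of 1 sign in every same-numbered pair, and not the overlap of ranges. It gave 4 members for levels and 4 for thinned shares, and the share over all genes was not computed. Without the replicate block of the *Il13* fit, which pairs cells of 1 mouse, 2 genes were called.

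Between genotypes *Il4* was -0.0150 in cells with over 2000 transcripts, -0.21 with the background set as a block and -0.22 to 0.62 without 1 mouse. *Csf1* was -0.0077 without macrophage-rich cells, -0.0444 without cells rich in other markers, -0.0207 by the mean over cells, -0.0231 without the libraries that stand apart, -0.0905 with barcode set 2 alone and -0.22 to 0.20 without 1 mouse. *Csf2* was -0.15 with the background set as a block and -0.10 to 0.37 without 1 mouse, and *Il1b* -0.13 to 1.03 without 1 mouse. By the presence of *Il13*, in the limma fit, *Il6* was -0.39 and *Tnf* -0.17 after thinning to 500 UMIs, and *Csf2* -0.13 against matched cells, -0.19 with pairs within 10% of UMIs, -0.38 in WT mice and -0.15 to 0.25 without 1 mouse. In the co-detection of members, *Tnf* was -0.17 and *Csf2* -0.0400 after thinning to 500 UMIs, *Csf2* -0.10 against matched cells, -0.14 with pairs within 10% of UMIs, -0.29 in WT mice and -0.12 to 0.18 without 1 mouse, and *Areg* -0.0394 to 0.24 without 1 mouse. The VSMC-like *Il6* level was 38.0 at clustering resolution 1 and 55.0 at 0.5, and the cardiac-like level 2.40 at 1 and 22.8 at 1.5. Count models were not run on the recovered UMIs, which entered the limma fit only. The background sets, both kinds of matched cells, the 2000-UMI cells, single genotypes and cells rich in other markers were alternatives chosen after seeing the data.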

Other observations

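Other cytokine genes also stood higher in *Myh11-GFP* cells than in the MCs of any mouse. *Il34*, which encodes a second ligand of the CSF1 receptor, stood at 1.10 per 10000 in *Myh11-GFP* cells and at 0 to 0.0610 in MCs. *Tslp*, an epithelial and stromal cytokine of type 2 immunity, stood at 0.917 against 0 to 0.0462, and *Hbegf*, an EGF receptor ligand like *Areg*, at 0.973 against 0.0170 to 0.315. *Il11*, a further gp130 cytokine, was found on both sides, at 0.715 in *Myh11-GFP* cells and 0.296 to 0.936 in MCs. No test was made, since the *Myh11-GFP* libraries are 1 sample.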
